A study of Drosophila melanogaster with 6 samples.

Results

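The genes described here are the 2 Daisho genes Dso1 and Dso2, the 4 Baramicin genes BaraA1, BaraA2, BaraB and BaraC, and the immune-induced molecule genes IM18 and IM33. These 8 genes were selected by name from the 17558 gene identifiers of the count table, and 7 of them passed the filter on low counts. Poly(A) RNA was sequenced from adult male flies of 2 genotypes, with 3 libraries each, all collected 12 h after injection of the Gram-positive bacterium M. luteus. The CR11538-overexpressing flies (Gal80ts; Tub> CR11538) carried a transgene of lncRNA-CR11538 under Gal4 control, inserted at 1 landing site. The control flies (Gal80ts; Tub-Gal4/P{CaryP}attP40) carried the same driver and the landing site, and the labels name no transgene in them. In both genotypes the tubulin promoter drives Gal4 in nearly all tissues, and the temperature-sensitive repressor Gal80ts holds it silent until the flies are warmed. Uninfected flies were not among the libraries, so the values do not show how strongly a gene was induced by the infection.

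Several of these genes take their old names from peptides that were seen in the blood of flies after infection, the immune-induced molecules or IMs. In a systemic infection the fat body, the insect counterpart of the liver, makes most of them under the Toll pathway, in which cleavage of the ligand Spätzle frees the NF-κB factors Dif and Dorsal from the inhibitor Cactus. The Daisho peptides are short secreted peptides that protect flies against filamentous fungi. BaraA encodes a precursor that is cut at furin-type sites into several antifungal peptides and is present as near-identical copies, while BaraB and BaraC are related genes known mainly from the nervous system. IM33 carries a Kunitz-type domain, the fold of many serine protease inhibitors, and no clear role is known for IM18.

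The libraries held 17040432 to 19652500 counts. The transcript of CR11538 itself had 2 to 5 raw counts in the control libraries against 2291 to 3358 in the CR11538-overexpressing libraries. Transcripts of male flies were plentiful in both genotypes: the accessory gland gene Acp36DE had 17189 ± 2062 normalized counts (SD, n = 3) in the controls against 21983 ± 1417 in the CR11538-overexpressing flies, while the oocyte gene osk had 5.40 ± 2.14 and 5.59 ± 1.92. In the list of female germline and yolk genes, osk, bcd, Yp1 and Yp2 were below the filter on low counts. The yolk protein gene Yp3 was well above it and was lower, with 1139 ± 35.7 normalized counts in control flies and 262 ± 50.5 in CR11538-overexpressing flies (log2 fold change -2.12, edgeR adjusted p = 2.15e-05). Genotype separated the libraries on the first principal component, and the second set CR11538-overexpressing replicate 1 (23.8) apart from replicate 3 (-21.4). Of 13159 genes tested, 14.2% were lower and 15% were higher in the CR11538-overexpressing flies at a Benjamini-Hochberg adjusted p under 0.05 (edgeR's quasi-likelihood test). Whether the replicates were separate groups of animals is not given in the labels (the methods of the study speak of independent biological replicates in general), and p-values reflect only the differences among these libraries, which may be technical.

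Transcripts of the Daisho genes, the paired BaraA genes, BaraC and IM33 were lower in the CR11538-overexpressing flies, and no gene of the group was higher. Of the 7 tested, 6 were lower (14.2% of all tested genes) and none was higher (15% of all tested genes), with a median log2 fold change of -0.88 over the 7 and -0.01 over all tested genes. BaraA1, BaraA2 and Dso2 fell by more than 2-fold, as did 1.23% of all tested genes, while 3.43% of all tested genes rose by more than 2-fold and none of the group did. In all 6 lower genes the highest CR11538-overexpressing library stayed below the lowest control library, as it did for 23.3% of all tested genes, and in none did the reverse hold (21.8% of all tested genes). Together the 8 genes took 0.253 to 0.264% of the counts in the control libraries and 0.143 to 0.157% in the CR11538-overexpressing libraries. Most of these counts came from Dso1 and IM33, and IM33 alone supplied 41.9 to 51.4% of them in the controls and 50.5 to 59.5% in the CR11538-overexpressing flies. The RNA came from whole flies, so fewer cells that make a transcript and less of it per cell cannot be told apart.

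**Figure D1:**
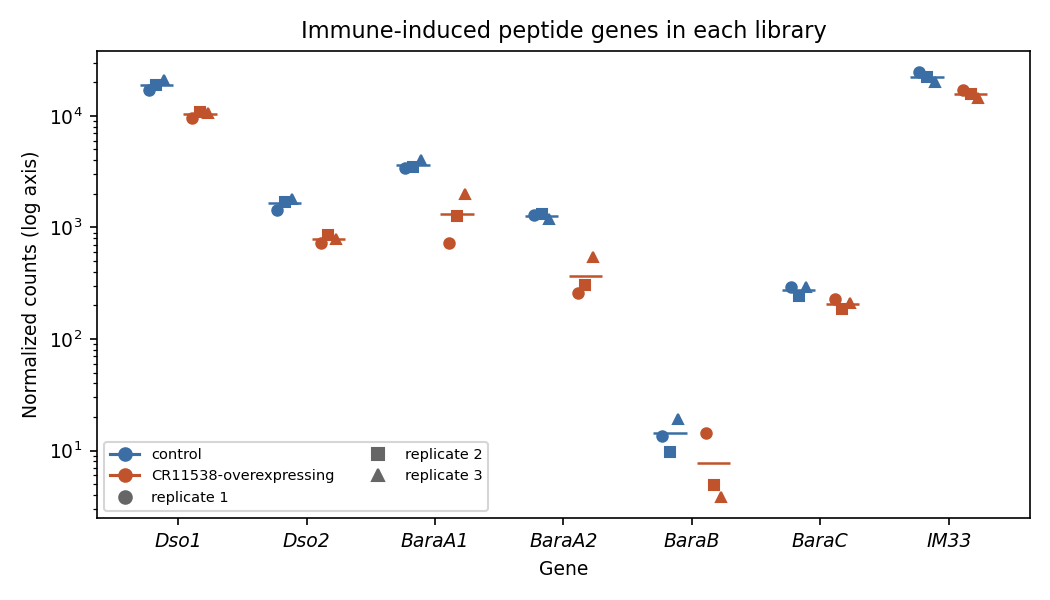
Normalized counts (log axis) of 7 immune-induced peptide genes in each of the 6 libraries, by genotype (color) and replicate (marker), with horizontal lines at the group means. The libraries of the genotypes do not overlap for any gene except BaraB, and the CR11538-overexpressing libraries spread widely for BaraA1, BaraA2 and, at 4 to 14 raw counts, BaraB. IM18 had 0 counts in every library and is not drawn.

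Dso1 and Dso2 lie 1071 bp apart on chromosome 2R of dm6 and are read from opposite strands. Dso1 (FBgn0040653) spans 20868496 to 20869321 on the minus strand and Dso2 (FBgn0067905) spans 20870392 to 20870678 on the plus strand, each with 2 exons. Dso1 had 16958, 18853 and 20734 normalized counts in control replicates 1, 2 and 3 and 9614, 10771 and 10519 in the corresponding CR11538-overexpressing replicates. The lowest control library thus stood well above the highest CR11538-overexpressing one. Dso1 fell to 54.6% of its control mean (log2 fold change -0.87, standard error 0.09, edgeR adjusted p = 0.000209). Dso2, the second Daisho gene, had 1432, 1704 and 1805 normalized counts in the controls and 727, 860.5 and 795 in the CR11538-overexpressing flies. It fell to 48.2% of its control mean (log2 fold change -1.05, standard error 0.10, edgeR adjusted p = 0.000121), again with no overlap between the genotypes. The spread among the CR11538-overexpressing libraries was small for both genes, with a coefficient of variation of 5.91% for Dso1 and 8.41% for Dso2, where the median over tested genes with at least 50 normalized counts was 7.89%.

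The 2 Daisho genes were also compared with each other within each library. The ratio of Dso2 to Dso1 per kilobase of exon was 0.290, 0.311 and 0.299 in the controls and 0.260, 0.275 and 0.260 in the CR11538-overexpressing flies, a difference of -0.18 on the log2 scale. All 3 CR11538-overexpressing libraries lay below the 3 controls, which gives a two-sided exact permutation p = 0.1, the smallest that 3 against 3 libraries can give (adjusted p = 0.2 over the 4 ratios examined). The exons of Dso2 sum to 223 bp, which is shorter than the cDNA fragments selected for the libraries. The level of Dso2 relative to Dso1 may therefore depend on the library preparation, which was not tested.

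The BaraA genes showed the largest falls of the group. BaraA2 (FBgn0033835 in the counts, listed under a newer identifier in current annotation) spans 13407011 to 13408358 of chromosome 2R and BaraA1 (FBgn0053470) spans 13411739 to 13413085, both on the plus strand with 4 exons and 3381 bp apart. BaraA1 had 3392, 3502 and 4024 normalized counts in control replicates 1, 2 and 3 and 728, 1275 and 1992 in CR11538-overexpressing replicates 1, 2 and 3. Its log2 fold change was -1.45 (standard error 0.28, edgeR adjusted p = 0.00465), and the CR11538-overexpressing mean stood at 36.6% of the control mean. BaraA2 had 1296, 1314 and 1196 normalized counts in the controls against 259, 306 and 542 in the CR11538-overexpressing flies. It fell to 29.1% of its control mean (log2 fold change -1.78, standard error 0.22, edgeR adjusted p = 0.000479). Among all tested genes, 0.418% had a lower log2 fold change than BaraA1 and 0.167% a lower one than BaraA2.

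The CR11538-overexpressing libraries differed from each other in BaraA far more than the controls did. BaraA1 stood at 20.0%, 35.0% and 54.7% of its control mean in replicates 1, 2 and 3, and BaraA2 at 20.4%, 24.1% and 42.7%. Replicate 1 was the lowest and replicate 3 the highest for both copies, and these are also the libraries at the ends of the second principal component. The coefficient of variation of BaraA1 was 9.28% in control flies and 47.6% in the CR11538-overexpressing flies, where 99.4% of tested genes with at least 50 normalized counts varied less. For BaraA2 it was 5.00% and 41.2%. Among 15 other Toll-induced genes, the coefficient of variation in the CR11538-overexpressing flies ran from 1.14 to 27.1%. The highest was that of BomBc1, so all 15 varied less than BaraA2. A wide spread was not particular to BaraA, however. Among the Imd-induced genes described below it was 44.7% for CecB, 40.25% for CecC, 39.2% for Def and 36.1% for AttD. The next in that list was CecA1 at 20.1%. CecB and CecC also varied in the control flies (32.8% and 31.9%). Without CR11538-overexpressing replicate 1 the log2 fold changes were -1.15 for BaraA1 and -1.58 for BaraA2, and without replicate 3 they were -1.86 and -2.17, and each of these passed the test.

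The copies cannot be fully separated in these counts. Reads that match both may have been discarded or assigned to either, and the setting for such reads is not given in the sources used here. When the counts of both copies were summed, the controls had 4688, 4816 and 5220.5 normalized counts and the CR11538-overexpressing flies 987, 1581 and 2534, a log2 fold change of -1.53 (standard error 0.26, edgeR adjusted p = 0.00279). Per kilobase of exon, the ratio of BaraA2 to BaraA1 was 0.382, 0.375 and 0.297 in the controls and 0.355, 0.240 and 0.272 in the CR11538-overexpressing flies. These ranges overlap (exact permutation p = 0.2, two-sided, adjusted p = 0.267 over the 4 ratios). The ratio of the summed BaraA counts to the summed Daisho counts, examined after the values had been seen, was 0.255, 0.234 and 0.232 in the controls and 0.0954, 0.136 and 0.224 in the CR11538-overexpressing flies. All 3 CR11538-overexpressing libraries lay below the controls, but replicate 3 lay close to the controls (exact permutation p = 0.1, two-sided and the smallest possible, adjusted p = 0.2).

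**Figure D2:**
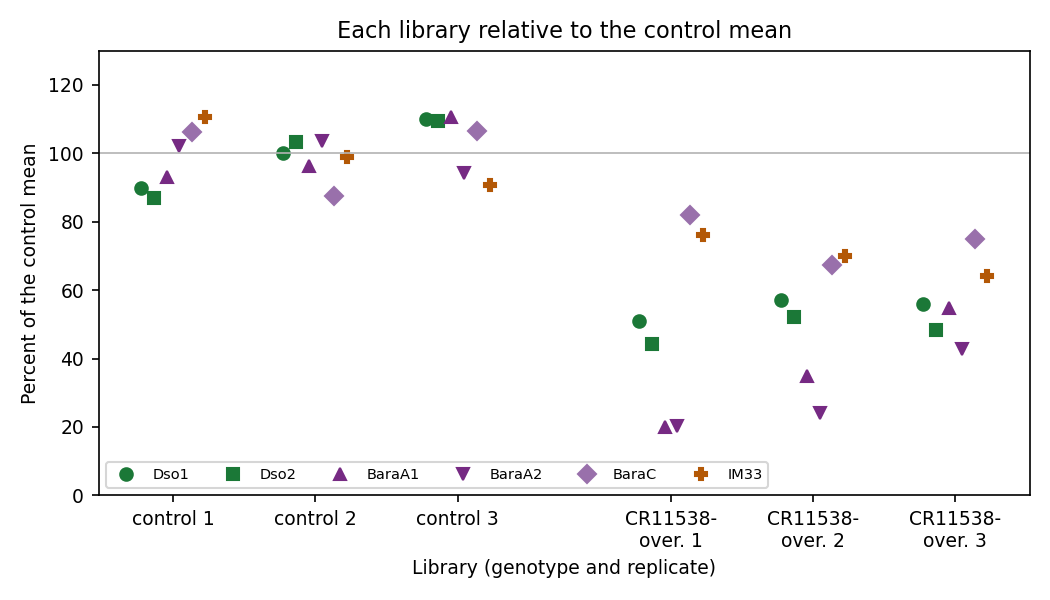
Normalized counts of 6 genes in each library as a percent of that gene's control mean (vertical axis), by library (horizontal axis), with 1 marker per gene. In the CR11538-overexpressing libraries Dso1 and Dso2 sit between 44.1 and 57.1%, BaraC and IM33 between 64.1 and 81.8%, and BaraA1 and BaraA2 between 20.0 and 54.7%.

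The other Baramicin genes were expressed at lower levels. BaraC (FBgn0050285, chromosome 2R, 21687903 to 21688545, minus strand) had 294, 243 and 295 normalized counts in the controls against 227, 187 and 208 in the CR11538-overexpressing flies. It fell to 74.8% of its control mean (log2 fold change -0.42, standard error 0.12, edgeR adjusted p = 0.0257), with a gap of 243 against 227 between the nearest libraries of the genotypes. The call was lost without control replicate 1, control replicate 3 or CR11538-overexpressing replicate 2 (edgeR adjusted p of 0.0961, 0.0899 and 0.0951), with log2 fold changes from -0.37 to -0.35. BaraB (FBgn0033353, chromosome 2R, 8933423 to 8934445, plus strand) was close to the limit of detection, with 14, 10 and 18 raw counts in the controls against 14, 5 and 4 in the CR11538-overexpressing flies. CR11538-overexpressing replicate 1 lay within the control range and the other two lay below it. BaraB did not pass the test (log2 fold change -0.88, edgeR adjusted p = 0.236), and the 95% interval of its unshrunk log2 fold change ran from -2.08 to 0.29 and so holds 0. Without CR11538-overexpressing replicate 1 it passed (log2 fold change -1.65, edgeR adjusted p = 0.0445).

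Neuronal and glial markers give the level of the tissue in which BaraB and BaraC are mainly known. Of 8 neuronal markers tested, 1 was higher and none lower, and their summed level was 631 to 662 CPM (counts scaled to a common library total) in the controls against 672 to 687 in the CR11538-overexpressing flies. Of 7 glial markers, 2 were higher and 2 were lower, with sums of 1207 to 1305 and 1121 to 1351. By log2 fold change, the higher ones were nrv2 (0.29) and Gat (0.42) and the lower ones repo (-0.53) and moody (-0.36). None of these markers was at 0 in all libraries, and their part in the BaraC result was not tested.

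IM33 was the most abundant gene of the group and changed less than the Daisho and BaraA genes. IM33 (FBgn0031561) lies on chromosome 2L from 3696218 to 3696658 on the minus strand, with 2 exons, and is the only one of the 8 genes outside 2R. It had 24715, 22089 and 20272 normalized counts in the controls and 17009, 15620.1 and 14330 in the CR11538-overexpressing flies. The lowest control library exceeded the highest CR11538-overexpressing library by a narrow margin compared with Dso1. IM33 fell to 70.0% of its control mean (log2 fold change -0.51, standard error 0.10, edgeR adjusted p = 0.00442). The ratio of IM33 to Dso1 per kilobase of exon was 2.93, 2.36 and 1.97 in the controls and 3.56, 2.92 and 2.74 in the CR11538-overexpressing flies, and the ranges overlapped (exact permutation p = 0.3, two-sided, adjusted p = 0.3).

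IM18 (FBgn0067903, chromosome 2R, 23600914 to 23601773, minus strand) had 0 counts in all 6 libraries. All 739 exon bases of IM18 are also annotated as exons of CG10332, which has the same start, end and strand and also had 0 counts in every library. Of 431 genes whose exon bases were all shared with a gene on the same strand, 97.2% had 0 counts in all libraries, and of 129 genes fully covered by exons of the opposite strand, 98.4% did. Of 11945 genes with no shared exon base, 6.69% had none. The exceptions were 12 genes of the same-strand class, with a median of 4.33 mean raw counts, and 2 genes of the opposite-strand class, with a median of 833. For nearly all genes of these classes, then, a sharing of all exon bases went with a count of 0, and the 0 of IM18 cannot be read as absence of its transcript. Of the other 7 genes, BaraA1 and BaraA2 share part of their exons, since 272 bases of the exons of BaraA1 are shared with CG30059 and 272 bases of those of BaraA2 with CG18278, on the opposite strand. Dso1, Dso2, BaraB, BaraC and IM33 share no exon base with another gene.

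Per kilobase of annotated exon, the order of the levels was IM33, Dso1, Dso2, BaraA1, BaraA2, BaraC and BaraB in the control flies. The levels were 3129 ± 313 CPM per kilobase (SD, n = 3) for IM33, 1311 ± 131 for Dso1, 394 ± 46.1 for Dso2, 167 ± 15.6 for BaraA1, 58.3 ± 2.91 for BaraA2, 25.7 ± 2.80 for BaraC and 0.848 ± 0.284 for BaraB. In the controls no neighbors in this order overlapped between libraries. In the CR11538-overexpressing flies the levels were 2191 ± 187 for IM33, 716 ± 42.3 for Dso1, 190 ± 16.0 for Dso2, 61.3 ± 29.2 for BaraA1, 16.96 ± 6.99 for BaraA2, 19.2 ± 1.85 for BaraC and 0.457 ± 0.339 for BaraB. Here BaraA2 (11.9 to 24.9) and BaraC (17.4 to 21.1) overlapped, so these 2 genes no longer stood in a clear order. Taking only exon bases that are not shared with another gene, BaraA1 had 204 to 242 CPM per kilobase in the controls and BaraA2 71.8 to 78.9, which leaves the order of the controls as given.

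None of the tested genes next to the Daisho and BaraA genes passed the test. Within 5 kb, CAH14 and Ipk1 beside the Daisho genes had log2 fold changes of -0.03 and -0.27 (edgeR adjusted p = 0.914 and 0.277), although Ipk1 starts 113 bp from the end of Dso2 on the same strand. Beside the BaraA genes, CG18278, CR45470, CG30059 and the phospholipid flippase gene ATP8A did not pass the test (log2 fold changes from -0.37 to 0.16). CG18278 had only 32 to 64 raw counts, and CR45470 and CG30059 had 16 to 27. The 95% intervals were wide for CG18278 (-0.61 to 0.78), CR45470 (-1.02 to 0.26) and CG30059 (-0.53 to 0.85), so these counts cannot show an absence of change. ATP8A, with 3688 ± 76.9 normalized counts in the controls against 3627 ± 135 in the CR11538-overexpressing flies (SD, n = 3 each), had a 95% interval of -0.16 to 0.11. CG18278 and CG30059 share exon bases with BaraA2 and BaraA1, and reads over these bases may be missing from their counts. The interval of each of these fold changes holds 0, and the differences between neighbors and members were not tested.

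The surroundings of IM33 differed from this. The gene CG16713, 807 bp from IM33, had 3442 ± 463 normalized counts in control flies (SD, n = 3) and fell to 2146 ± 233 (n = 3), with a log2 fold change of -0.68 (standard error 0.11, edgeR adjusted p = 0.00187). The gene CG10031, 1793 bp away on the other side, fell to 459.7 ± 71.1 normalized counts from 837 ± 101, with a log2 fold change of -0.87 (standard error 0.12, edgeR adjusted p = 0.00107). For both genes every CR11538-overexpressing library was below every control library. CG3604, which lies between IM33 and CG10031 at 584 bp from IM33, had a log2 fold change of -0.18 and did not pass (edgeR adjusted p = 0.288), and CG43165 had 8 to 24 raw counts and did not pass either. Beside BaraB, the deadenylase gene PAN2 was lower by less than the members above (log2 fold change -0.25, edgeR adjusted p = 0.016), and FANCI, a DNA repair gene, did not pass. Beside BaraC, CG10307 and Tbp, the TATA-binding protein gene, did not pass. Near IM18, CG43209 had a log2 fold change of 0.33 (edgeR adjusted p = 0.0452). CG42559 and CG42560 had 0 counts in all libraries. These 2 genes have the same start, end and strand, so, as for IM18, their 0 cannot be read as absence.

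**Figure D3:**
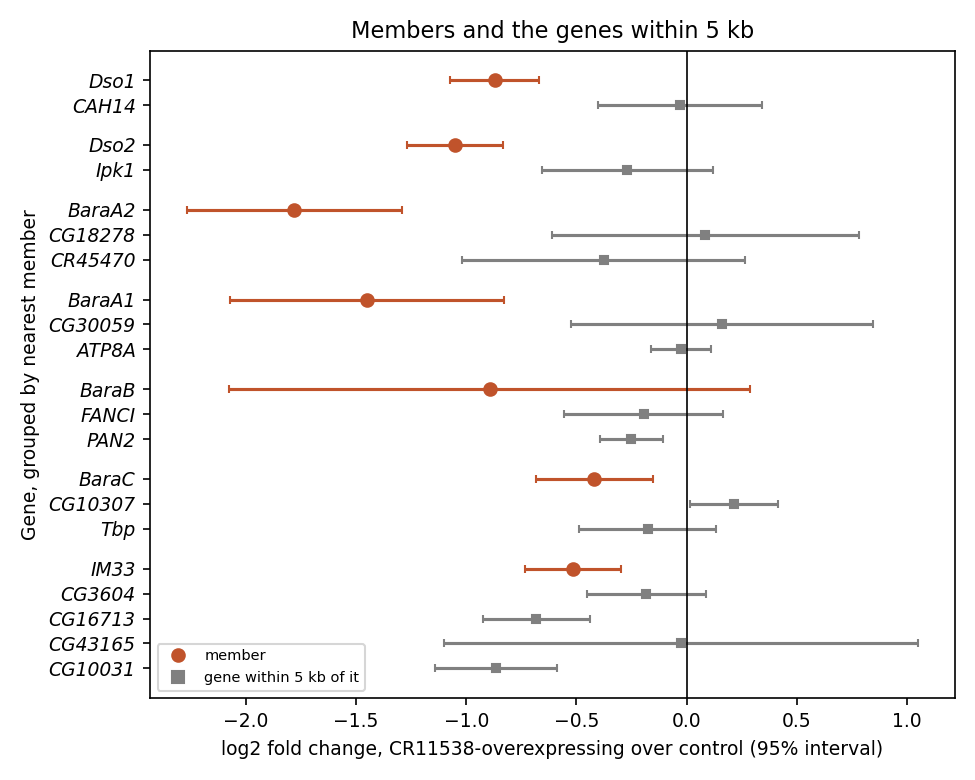
log2 fold change of 7 immune-induced peptide genes (circles) and of the tested genes within 5 kb of them (squares), CR11538-overexpressing over control, with 95% intervals from the fit. Each neighbor is drawn once, and the neighbor of IM18 is left out. The intervals of the genes beside the Daisho and BaraA genes hold 0, while CG16713 and CG10031 beside IM33 lie at -0.68 and -0.87.

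Other genes induced through the Toll pathway give a scale for these values. In a list of 15 genes made of the Bomanin genes, Mtk, IBIN and SPH93, 14 were lower, none was higher and BomS4 did not pass, with a median log2 fold change of -0.93. Drosomycin, the Toll peptide gene that the study measured together with Mtk, is not in this list. Its value is not given here, which does not mean that it was missing from the counts. BaraA1 and BaraA2 had lower log2 fold changes than all 15, of which BomT1 had the lowest (-1.30, standard error 0.10, edgeR adjusted p = 5.96e-05). The intervals of BomT1 (-1.54 to -1.07), BaraA1 (-2.07 to -0.83) and BaraA2 (-2.27 to -1.29) overlapped, and the difference was not tested. Dso2 had 4 genes of the list below it and 11 above, and Dso1 had 10 below and 5 above. IM33 had 13 below it and 2 above, which were Mtk (-0.49) and BomS4 (-0.01), and BaraC had 14 below and 1 above.

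**Figure D4:**
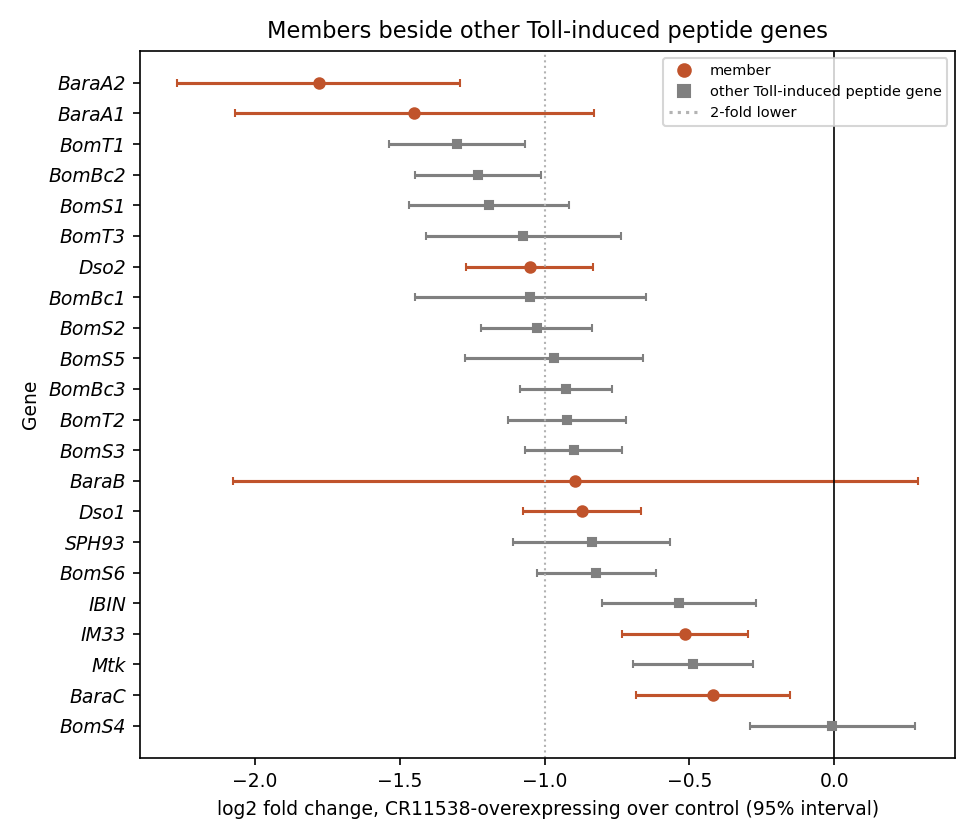
log2 fold change, CR11538-overexpressing over control, with 95% intervals from the fit, for 7 genes of the group (circles) and 15 other Toll-induced genes (squares), ordered by value. The dotted line marks a 2-fold fall. BaraA2 and BaraA1 lie lowest at -1.78 and -1.45, Dso2 and Dso1 lie among the Bomanin genes, and IM33 and BaraC lie near Mtk.

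Genes of the Toll pathway, inhibitors among them, were lower in part. Of 21 components tested, 13 were lower and none was higher, against 14.2% and 15% of all tested genes. Their median log2 fold change was -0.40. Only 1 fell by more than 2-fold, the protease gene Hayan (-1.02, standard error 0.11, edgeR adjusted p = 0.000228). The serpin gene nec, which restrains the cascade, fell to 3567 ± 165 from 6271 ± 160.0 normalized counts (SD, n = 3 each). The gene cact, which encodes the inhibitor Cactus, had a log2 fold change of -0.57 (edgeR adjusted p = 0.00036). SPE, the protease that cleaves Spätzle, and dl, which encodes Dorsal, had log2 fold changes of -0.96 and -0.66. The furin genes Fur1 and Fur2 and the related proprotein convertase gene amon did not pass the test (log2 fold changes of 0.11, -0.08 and -0.16, edgeR adjusted p = 0.292, 0.489 and 0.208). Their family includes the enzymes cutting such precursors as that of BaraA. Of 17 Imd-induced genes, which respond mainly to Gram-negative bacteria, 9 were lower and 5 were higher, among them the negative regulator gene pirk (-0.93), the attacin gene AttA (-0.82) and the cecropin gene CecA2 (1.16). By more than 2-fold, 0 of the 17 fell and 4 rose, against 1.23% and 3.43% of all tested genes. These 4 were CecB (1.65), AttD (1.27), CecC (1.21) and CecA2. PGRP-SD, a pattern recognition gene, is counted in both of these lists. Without control replicate 1 the lower Imd-induced genes numbered 5, and without control replicate 3 the higher ones numbered 3.

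The gene with the profile most like Dso1 over the 6 libraries was the Bomanin gene BomT2. Likeness was measured as the root mean square difference between log2 profiles, each centered on its own mean, among 11245 genes with at least 50 normalized counts. BomT2 differed from Dso1 by 0.0495 and Dso2 differed from it by 0.0978, and the purine synthesis gene Pfas (0.0567) came second. Dso2 was nearest to CG11951 (0.0473) and then BomT2 (0.0713). BaraA2 was nearest to CG32750 (0.121) and CG7017 (0.175), ahead of its copy BaraA1 (0.25). For BaraA1 the same 2 genes were the nearest outside the group (0.269 for CG7017 and 0.275 for CG32750), behind BaraA2. BaraC was nearest to the neuropeptide gene AstC (0.0519) and Saysd1 (0.0534), and IM33 to CG15531 (0.0377) and CG10799 (0.0392). With 2 genotypes and 3 libraries each, genes with a like difference between the genotypes come out as alike.

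Markers of other cell types also differed between the genotypes. Of 7 hemocyte markers tested, 5 were higher and none lower, and the summed level of the 8 listed, among them Hml, NimC1 and Pxn, was 641 to 690 CPM in the controls and 849.9 to 1152 in the CR11538-overexpressing flies. None of them was at 0 in all libraries, and He was below the filter. Of 8 adult fat body markers, 2 were higher (apolpp and Lsd-1) and 1 was lower (Apoltp), with sums of 3869 to 4441 CPM in the controls against 3696 to 5869 in the CR11538-overexpressing flies, and none at 0. CR11538-overexpressing replicate 1, the library lowest in BaraA1 and BaraA2, had the highest sum of both lists, and replicate 3, the highest in BaraA1 and BaraA2, had the lowest sum of both among the CR11538-overexpressing libraries. Single markers were divided in this. From replicate 1 over 2 to 3, apolpp, Lsd-1, mdy, Desat1, NimC1, Pxn, NimB4 and Col4a1 fell stepwise. Apoltp, Lsd-2, bmm, Lpin, Hml, eater and Sr-CI were instead highest in CR11538-overexpressing replicate 2. The sums weigh abundant genes such as apolpp and Desat1 most. The part of these markers in the results above was not tested.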

How the data were processed

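The deposited raw counts per gene were made by the authors from paired-end reads of poly(A) RNA, with HISAT2 2.0.5 as aligner on dm6 and featureCounts 1.5.0-p3 as counter, and were neither normalized nor pooled. For the strand setting and the annotation release, the value is not given in the sources used here. Genotypes came from the strain labels. The dm6 annotation of Ensembl, release 115, gave names and coordinates and holds 17252 of 17558 identifiers. FBgn0033835 was read as BaraA2, since a supplementary table of the study places it at the coordinates of that gene under a RefSeq synonym of it. CG33493, a separate gene on 3L, was not taken as a Baramicin gene.

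Counts were tested with edgeR 4.0.16 (R 4.3.3): 13159 genes passed filterByExpr, library sizes were scaled by TMM, and genotype was the only term of the quasi-likelihood test, with Benjamini-Hochberg adjustment over all 13159 genes. Genes were lower or higher at an adjusted p under 0.05, and the study's added threshold is a fold of 2. Standard errors are the unshrunk log2 coefficient divided by the square root of F, and intervals are 95%. Printed log2 fold changes include edgeR's shrinkage. Normalized counts are TMM-scaled to the mean library. A count of 0 allows a share of up to 1.76e-05% of the shallowest library, taking 3 counts as the limit, for counting error only. On simulated counts of this comparison the test recovered 100% of genes changed 4-fold, 78% changed 2-fold, 80% changed 0.5-fold and 92% changed 0.25-fold (12884 genes tested). DESeq2 1.42.0 was an alternative. Tables, exact tests and figures were made with scipy 1.17.1, numpy 2.4.6, pandas 2.3.3 and matplotlib 3.10.9 in Python 3.11.15.

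The genes and lists were chosen with earlier results of these data known. Promoter motifs and protein sequences were not analysed here. Besides the 8 genes, CR11538 and the markers, the text names genes within 5 kb (up to 4 per gene), up to 3 genes per list by lowest adjusted p, and the 2 closest profiles. Hayan, BomBc1 and other genes singled out in a list were named after their values were seen.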

Additional observations from a re-analysis of the deposited data

How the results depend on the processing

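Dso1, Dso2, BaraA1, BaraA2 and IM33 were lower and passed the test under every alternative run: DESeq2, edgeR with scaling by library size only or by the size factors of DESeq2, testing without a filter, a minimum of 10 counts per library, the replicate block, the summed BaraA copies (in which BaraA2 is no separate gene) and each library left out in turn. Their log2 fold changes ran from -0.94 to -0.79 for Dso1, -1.14 to -0.98 for Dso2, -1.86 to -1.15 for BaraA1, -2.17 to -1.58 for BaraA2 and -0.58 to -0.44 for IM33. BaraB had too few counts for the minimum of 10.

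With a fold of 2 required as well, 3 genes of the group were lower, and of all genes 162 were lower and 451 higher, against 1870 and 1974 without it. Leaving out 1 library gave 1146 to 1889 lower and 1193 to 2024 higher genes among all tested, 5 to 7 lower genes of the group, and 5 to 9 lower and 3 to 6 higher Imd-induced genes. No scaling moved the median log2 fold change of all genes by as much as 0.1.

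Libraries with the same replicate number share only a number: their deviations from the group means correlated by 0.127, 0.035 and 0.071, and not every library correlated best with its own number. With the replicate block, 1924 genes were lower and 2061 higher, the lower genes of the group stayed at 6, and no call in the group changed. The depth limits BaraB, and shared exons limit IM18.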
